A study of Mus musculus with 6 samples.

Results

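Integrins, laminins and cadherins were described on 6 microarrays of mouse SYF cells, a fibroblast line from embryos without the 3 kinases Src, Yes and Fyn. Members were all probe sets whose gene symbol names an integrin alpha or beta chain, a laminin alpha, beta or gamma chain or a numbered cadherin, with Lamp genes and integrin-binding proteins left out. This rule found 115 of 45037 probe sets, for 56 of 18193 genes with a symbol. They were 36 probe sets for 16 integrin alpha genes, 21 for 9 integrin beta genes, 9 for 5 laminin alpha genes, 6 for 3 laminin beta genes, 4 for 2 laminin gamma genes and 39 for 21 cadherin genes.

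The cells stably carried 1 of 2 Src mutants, R388A/Y527F or D386N/Y527F, so both lines shared the Y527F change and the absence of the cells' own Src, Yes and Fyn. Each line was starved of serum overnight and then left without imidazole, the 0 h group, or given 5 mM imidazole for 1 h or 12 h. Y527F removes the tyrosine through which Src is held inactive, R388A makes a kinase whose activity imidazole can restore, and D386N lacks the catalytic aspartate and served as the line that imidazole does not rescue. Each of the 6 groups had 1 array. Whether a line was 1 clone or a pool of transfected cells, and whether the cultures were separate for each time, is not given in the sources used here.

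Integrins are receptors made of 1 alpha and 1 beta chain that bind the extracellular matrix and signal through Src family kinases and focal adhesion kinase. Laminins are trimers of an alpha, a beta and a gamma chain and form the core of basement membranes, where integrins such as those with the alpha chain Itga6 bind them. Classical cadherins join neighbouring cells through calcium-dependent contacts and are tied to actin by catenins, and fibroblasts typically carry N-cadherin (Cdh2) and cadherin 11 (Cdh11) in place of the epithelial E-cadherin (Cdh1).

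The line with R388A/Y527F had at least 10.9-fold more signal of the laminin receptor chain Itga6 than the D386N/Y527F line, and 2.27- to 2.57-fold more of the laminin chain Lamb1, as fitted over the 3 times. It had less of the laminin chain Lamb2 (1.90-fold lower), the vitronectin receptor chain Itgb5 (1.38- to 1.75-fold in 3 called probe sets) and the cadherin Cdh2 (1.37-fold in 1 of 2 probe sets). Of the tested probe sets, 51 of 61 (83.6%) differed by less than 0.5 on the log2 scale, against 84.4% of all probe sets. None of the members passed a test for a change after imidazole, and neither did any other probe set on the array (0% of 29728).

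Signals are linear intensities, scaled so that the trimmed mean of each array was 150. A floor of 20.4 was used, the 40th percentile over the 6 arrays. Dimmer signals were raised to it, and brighter ones counted as measured. By this measure 26044 to 27400 probe sets lay above the floor on each array. Ratios of 3' to 5' probe sets were 0.76 to 0.82 for Gapdh and 1.11 to 1.18 for actin over the 6 arrays, which gives no array that stands apart. A probe set for Src (1423240_at) gave 66.9, 19.1 and 42.2 at 0, 1 and 12 h in R388A/Y527F, against 58.4, 72.7 and 67.9 in D386N/Y527F. Probe sets for Fyn (1417558_at) and Yes1 (1449090_a_at) gave 185.3 to 238.4 and 180.6 to 219.4. Whether these probes lie in deleted or introduced sequence was not tested, so they do not check the labels.

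Of the 115 member probe sets, 31 lay above the floor on all 6 arrays, 61 on at least 2 arrays and 45 on no array. The 61 probe sets, for 39 genes, were tested, and none of the other 54 could show a difference in the test. Genes at the floor on every array by all of their probe sets were the collagen and laminin receptor chain Itga1, the leukocyte chain Itgam, the beta chains Itgb3, Itgb4, Itgb6 and Itgb8, the laminin chains Lama1, Lama2 and Lamb3, and the cadherins Cdh3, Cdh8, Cdh16, Cdh17 and Cdh18. In a second summary of the same arrays, deposited beside the first with no method stated and given its own floor of 11.3, 1 probe set each of Itga1, Cdh3, Cdh8 and Cdh16 was above it on all 6 arrays. The E-cadherin gene Cdh1 was above the floor on 1 array only, with 23.7 in R388A/Y527F at 1 h, and at most 10.6 on the other arrays. A probe set at the floor may also be one that hybridises poorly, so these are signals below the floor and not proof of a missing transcript.

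The first comparison asked how the R388A/Y527F line differed from the D386N/Y527F line over the 3 times. It was tested in limma, a linear model fitted across all 29728 tested probe sets with line and time as terms and Benjamini-Hochberg adjustment over all of them. With 1 array per group, a line's 3 times take the place of replicates, so the p-values measure only the spread between these arrays. At an adjusted p under 0.05, 6 of the 61 member probe sets were higher and 5 lower in R388A/Y527F, against a background of 6.82% higher and 7.25% lower over all probe sets. The members' shares, 9.84% and 8.20%, were near that background. One of the higher calls, Itga6 1422444_at, entered the test only through its R388A/Y527F arrays. Their median log2 difference was -0.02 against -0.01 for all probe sets. The 3 arrays of R388A/Y527F lay above all 3 of D386N/Y527F for 10 member probe sets and below for 11, where the background was 15.3% and 15.8%. These counts are therefore no result about the families as a whole, and the called differences lay in 6 genes, Itga6, Itga8, Lamb1, Lamb2, Itgb5 and Cdh2.

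**Figure D1:**
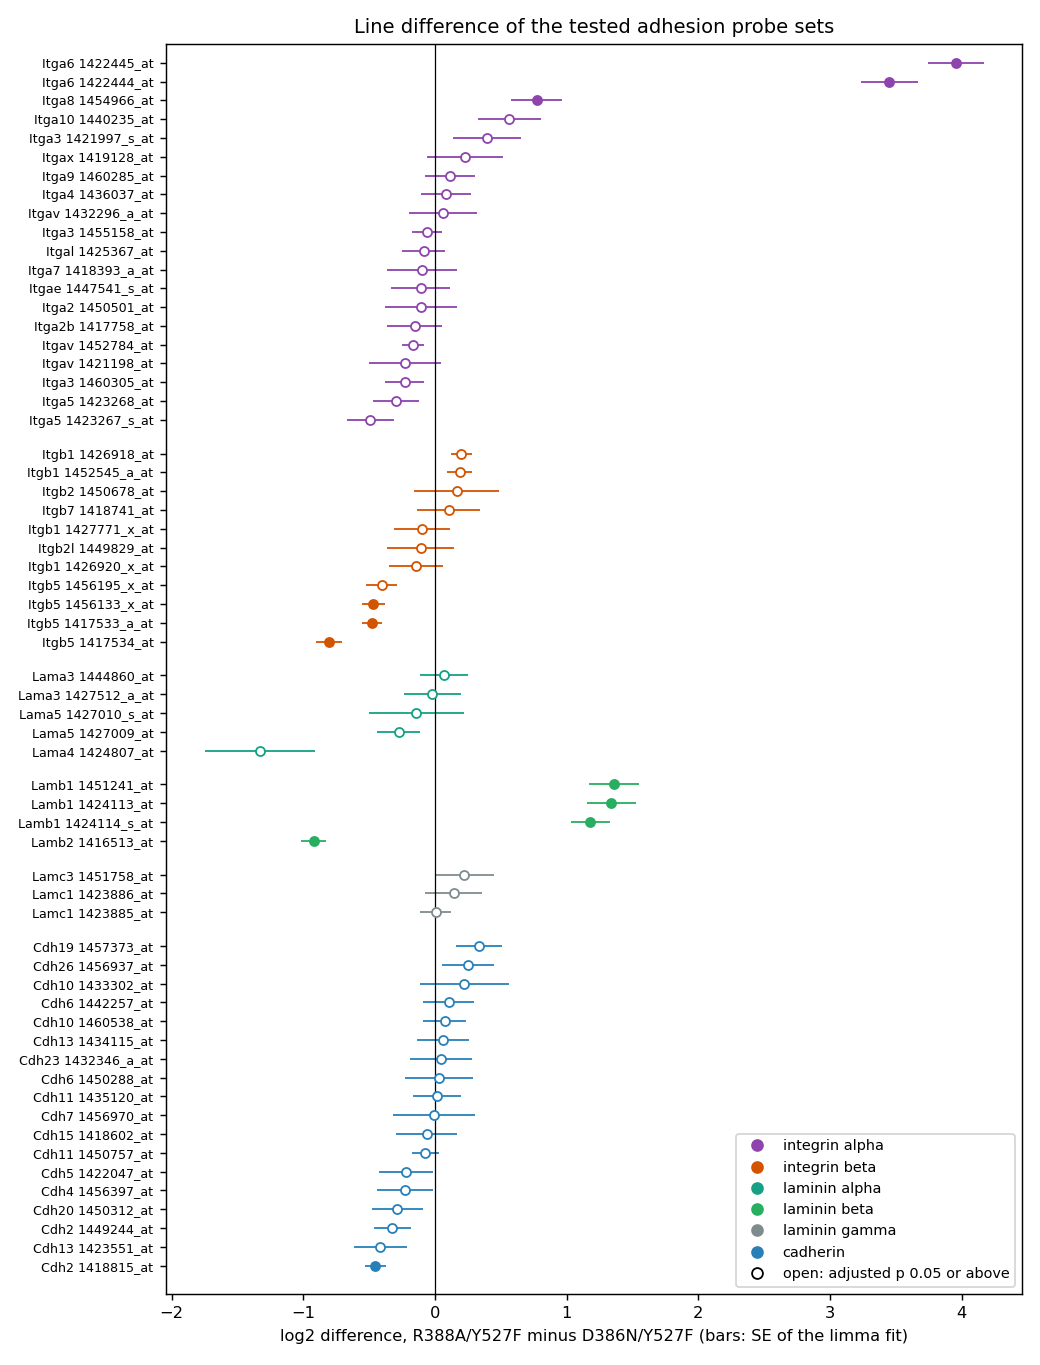
Log2 difference in signal between the lines, R388A/Y527F minus D386N/Y527F, for the 61 tested probe sets, grouped and coloured by family. Points are limma estimates over 3 times, bars their standard errors, and filled points have an adjusted p under 0.05. Both Itga6 probe sets stand at 3.45 and 3.95, the 3 Lamb1 probe sets between 1.18 and 1.36, and most others near 0.

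The fibroblast label was set against marker genes, counted in the same fit, in which 6.82% of all probe sets were higher and 7.25% lower. Of 21 tested fibroblast marker probe sets, 3 were higher and 3 lower in R388A/Y527F. The higher ones were Dcn (1.99), Pdgfra (0.52) and Vim (0.42) and the lower ones Thy1 (-1.84) and Pdgfrb (-1.14 and -1.39). Of 11 fibroblast genes, 10 were above the floor on all 6 arrays by at least 1 probe set, among them Col1a1, Col1a2 and Vim. Fap was dim, at 28.2 to 45.4 in R388A/Y527F and 37.6 to 44.7 in D386N/Y527F. Lum was above the floor on 3 arrays only, with at most 22.7. The summed signal of the fibroblast list was 42530.7 to 49004.5 in R388A/Y527F, against 40402.4 to 44860.0 in D386N/Y527F. Among epithelial markers, 3 of 9 tested probe sets were higher, all for the keratin gene Krt8, with differences of 0.94 to 1.85 and list sums of 612.5 to 686.5 in R388A/Y527F, against 350.5 to 572.9 in D386N/Y527F, while Krt19 was at the floor on all 6 arrays and Epcam gave 157.5 to 217.0 in R388A/Y527F, against 103.9 to 300.8 in D386N/Y527F. Among neural and glial markers, 3 of 16 were higher and 1 lower, with sums of 901.9 to 992.0 in R388A/Y527F, against 569.8 to 711.5 in D386N/Y527F. The higher ones were Nefl (2.34 and 1.71, both with D386N/Y527F means under the floor) and Map2 (0.93) and the lower one Mbp (-1.18, with an R388A/Y527F mean under the floor), and Snap25 was at the floor. Haematopoietic markers had 0 higher and 2 lower of 10, both for Coro1a (-1.20 and -0.78), with sums of 511.1 to 605.8 in R388A/Y527F, against 664.1 to 731.1 in D386N/Y527F, and Itgam and Lcp1 at the floor. Endothelial and muscle markers had 0 calls among 5 and 7 probe sets, with Pecam1, Tek, Tie1 and Myog at the floor and sums of 186.3 to 194.3 and 229.4 to 276.5 in R388A/Y527F against 161.3 to 216.3 and 239.5 to 289.1 in D386N/Y527F. Other genes of these lists were above the floor on all 6 arrays by at least 1 probe set. They were 4 of 10 epithelial, 6 of 8 neural and glial, 5 of 10 haematopoietic, 2 of 8 endothelial and 1 of 8 muscle genes. Among them were Csf1r (91.2 to 127.7), Sox10 (62.3 to 90.8), Kdr (52.9 to 70.1) and Ckm (56.6 to 86.3), over both lines. The part of the marker differences in the line differences of the adhesion genes was not tested, and less RNA per cell cannot be told apart from fewer cells of a kind in such bulk samples.

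Laminins are taken first, because 2 chains that can take the same place in the trimer went opposite ways. Lamb1 encodes the laminin beta 1 chain and Lamb2 the beta 2 chain, each of which can assemble with the gamma chain Lamc1. Their promoters are shown as the sequence context of these 2 chains, with that of Itgb5, the integrin chain with several lower probe sets. Each is the plus strand of the 250 bases before the RefSeq gene start in GRCm38.p6, with GC boxes in capitals. A GC box is GGGCGG, which reads CCGCCC where it lies on the other strand. The Lamb1 window is chr12:31265043-31265292, the Lamb2 window chr9:108479612-108479861 and the Itgb5 window chr16:33829415-33829664.
Lamb1: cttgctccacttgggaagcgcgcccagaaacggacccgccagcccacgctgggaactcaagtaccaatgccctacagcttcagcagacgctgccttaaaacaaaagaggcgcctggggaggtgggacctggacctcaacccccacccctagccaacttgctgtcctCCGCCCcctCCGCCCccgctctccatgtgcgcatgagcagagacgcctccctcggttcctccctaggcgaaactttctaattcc
Lamb2: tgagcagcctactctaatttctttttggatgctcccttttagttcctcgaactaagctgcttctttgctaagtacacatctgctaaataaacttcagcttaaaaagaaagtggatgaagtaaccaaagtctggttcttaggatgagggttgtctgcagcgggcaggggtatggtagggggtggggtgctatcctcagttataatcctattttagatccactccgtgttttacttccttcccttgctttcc
Itgb5: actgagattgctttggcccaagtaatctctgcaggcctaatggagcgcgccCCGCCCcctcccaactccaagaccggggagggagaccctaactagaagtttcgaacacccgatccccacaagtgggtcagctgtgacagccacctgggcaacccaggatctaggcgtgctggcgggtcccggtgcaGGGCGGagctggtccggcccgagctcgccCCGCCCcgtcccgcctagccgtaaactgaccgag

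The Lamb1 window held 2 GC boxes, the Lamb2 window 0 and the Itgb5 window 3, searched on both strands. Over all 32851 mouse promoter windows of this length, 32.7% held at least 1. The AP-1 site TGANTCA was in 0 of the 3 windows (6.7% of all windows held it), and so was the ETS core CCGGAA (12.0% of all). These matches describe letters only and say nothing of which factors bind. Neither Itga6 nor Lama4 was in the table of promoters.

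Lamb1 was higher in R388A/Y527F by all 3 of its measured probe sets. Probe set 1424114_s_at gave 347.3, 425.5 and 324.1 at 0, 1 and 12 h in R388A/Y527F, against 151.0, 141.3 and 192.7 in D386N/Y527F. Probe set 1424113_at gave 168.3, 234.5 and 251.1 in R388A/Y527F, against 71.4, 66.3 and 129.1 in D386N/Y527F. Probe set 1451241_at gave 135.2, 110.3 and 177.7 in R388A/Y527F, against 47.7, 44.8 and 73.4 in D386N/Y527F. Within each probe set every R388A/Y527F array was above every D386N/Y527F array. The log2 differences were 1.18 (SE 0.15), 1.34 (SE 0.18) and 1.36 (SE 0.19), which are 2.27-, 2.53- and 2.57-fold, with adjusted p of 0.0018, 0.0024 and 0.0024 in limma. Another Lamb1 probe set, 1446180_at, was at the floor on all 6 arrays. The second summary gave 1.504, 1.298 and 1.412 for the 3 measured probe sets. Without the 1 h arrays the 3 adjusted p were 0.067 to 0.0699, and without the 12 h arrays 1424113_at and 1451241_at were at 0.0657 and 0.0867.

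Lamb2 went the other way. Its single probe set, 1416513_at, gave 278.9, 219.8 and 297.0 at 0, 1 and 12 h in R388A/Y527F, against 467.1, 453.6 and 584.9 in D386N/Y527F. The 2 lines did not overlap, and the log2 difference was -0.92 (SE 0.09, adjusted p = 6e-04 in limma), or -1.09 in the second summary. Without the 1 h or the 12 h arrays the adjusted p was 0.0562 or 0.0579, with differences of -0.86 and -0.89. The ratio of Lamb1 to Lamb2 within each array depends on no scaling of that array. Its log2 value was 2.10 to 2.28 higher in R388A/Y527F, depending on the Lamb1 probe set, and 2.39 to 2.59 higher in the second summary.

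The other laminin chains gave 0 calls. Lamc1, the gamma 1 chain found in most laminins, had means over 3 times of 402.9 ± 51.9 in R388A/Y527F, against 401.3 ± 43.1 in D386N/Y527F (SD, n = 3 times, 1423885_at), a log2 difference of 0.00 (SE 0.11). Lama5, the alpha 5 chain of many adult basement membranes, gave 91.6, 103.8 and 94.4 in R388A/Y527F, against 108.6, 117.8 and 124.8 in D386N/Y527F (1427009_at). These did not overlap, but the difference of -0.28 (SE 0.16) did not pass the test (adjusted p = 0.33, limma). The other tested Lama5 probe set, 1427010_s_at, overlapped between the lines, with a difference of -0.14 (SE 0.36). At 12 h it gave 62.2 in R388A/Y527F, against 31.1 in D386N/Y527F.

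Lama4, an alpha chain of vessel and mesenchymal matrix, was measured in D386N/Y527F only. Probe set 1424807_at gave 10.7, 9.0 and 16.6 in R388A/Y527F, all below the floor, and 53.1, 16.1 and 124.2 in D386N/Y527F, where the 1 h array was below it too. The log2 difference was -1.33 against the floor and was not called. The probe set entered the test only through D386N/Y527F arrays. Its R388A/Y527F values, all set to the floor, have no spread, so no p is given for it from this signal. In the second summary, where all 6 arrays were above its own floor of 11.3, the values were 36.6, 19.2 and 46.2 in R388A/Y527F, against 55.9, 46.7 and 114.2 in D386N/Y527F, and the difference of -1.06 passed (adjusted p = 0.010, limma). The second Lama4 probe set, 1424808_at, exceeded the floor on 1 array, at 21.4.

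Among integrin alpha chains, 3 of 20 tested probe sets were higher and 0 lower (background 6.82% and 7.25%). Itga6, which pairs with Itgb1 or Itgb4 to form laminin receptors, stood far from the rest. Probe set 1422445_at gave 492.8, 542.5 and 587.9 at 0, 1 and 12 h in R388A/Y527F, against 18.9, 49.9 and 41.5 in D386N/Y527F. Probe set 1422444_at gave 256.3, 234.4 and 185.0 in R388A/Y527F, against 11.1, 14.8 and 13.6 in D386N/Y527F, all 3 of which are below the floor. Every R388A/Y527F array was several-fold above every D386N/Y527F array in both probe sets. The log2 difference of 1422445_at was 3.95 (SE 0.21, adjusted p = 2.5e-05 in limma), or 15.5-fold with the D386N/Y527F 0 h array set to the floor. For 1422444_at it was 3.45, at least 10.9-fold, since D386N/Y527F has only a bound there. That probe set entered the test only through the arrays where it is high, and its 3 values at the floor have no spread, so no p is given for it from this signal.

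In the second summary both Itga6 probe sets were above the floor on all 6 arrays. Probe set 1422444_at gave 442.6, 376.9 and 334.7 in R388A/Y527F, against 29.8, 26.8 and 23.6 in D386N/Y527F, and 1422445_at gave 436.9, 440.4 and 388.2 in R388A/Y527F, against 18.8, 22.4 and 21.5 in D386N/Y527F. The log2 differences there were 3.84 (SE 0.08, adjusted p = 0.00013 in limma) and 4.34 (SE 0.11, adjusted p = 0.00014 in limma). Probe set 1422445_at remained called in each of the alternatives in which it was tested, with an adjusted p of up to 0.0362 without the 1 h arrays. Neither was tested where a signal above the floor was asked on all 6 arrays.

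**Figure D2:**
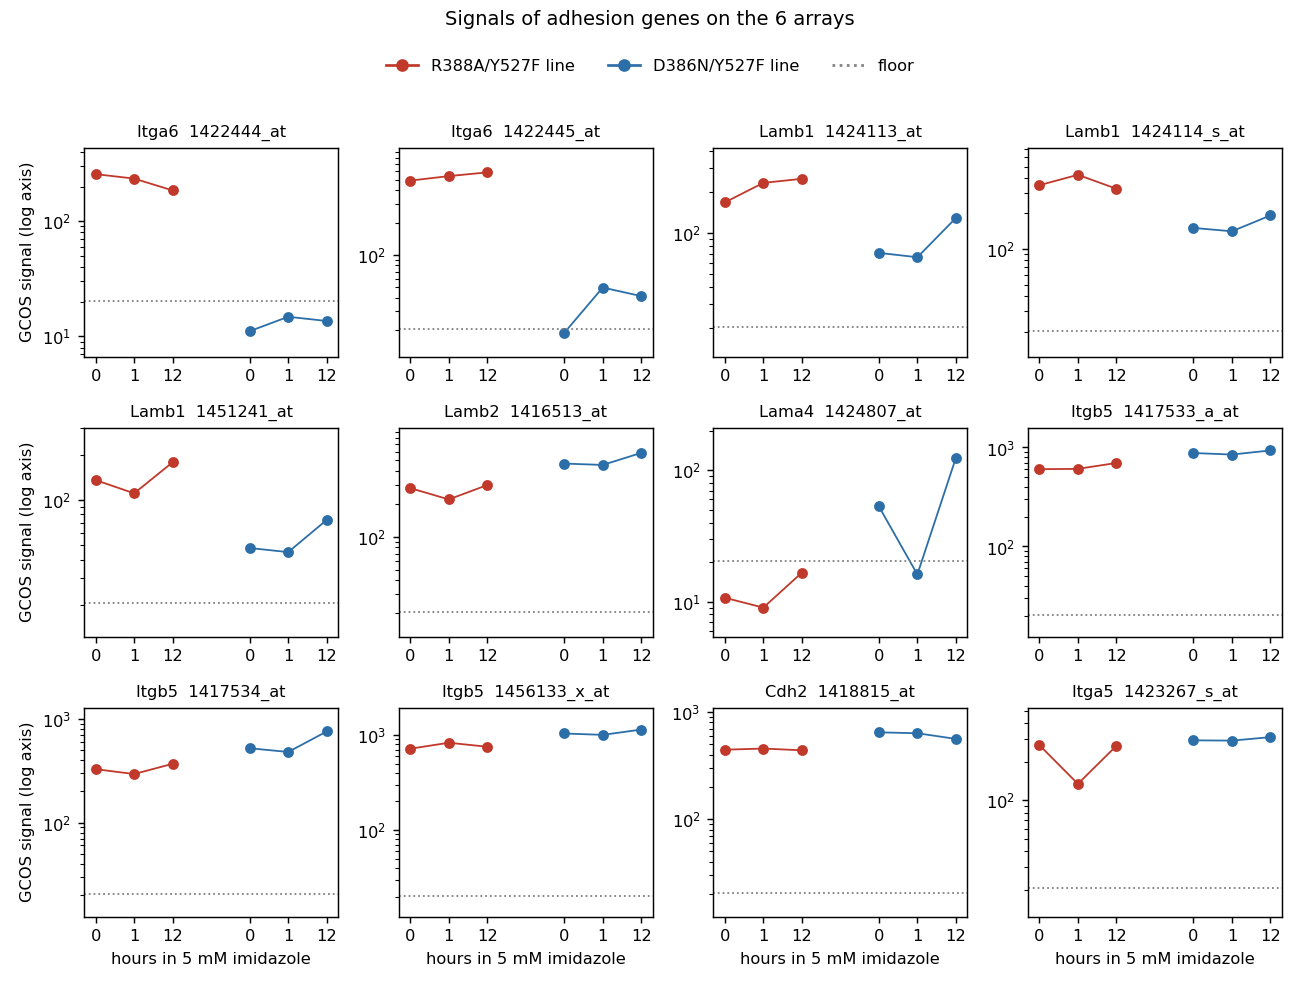
Signal on each of the 6 arrays for 12 probe sets of adhesion genes, on a log axis that differs between panels, against hours in 5 mM imidazole, with R388A/Y527F in red on the left and D386N/Y527F in blue on the right of each panel. The dotted line is the floor of 20.4. The lines are far apart for Itga6 and clearly apart for Lamb1 and Lamb2, while Lama4 in D386N/Y527F moves between 16.1 and 124.2.

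The partner chains of Itga6 gave 0 calls. Itgb1, the common beta chain, gave 1205.1 to 1323.2 in R388A/Y527F, against 1058.2 to 1128.9 in D386N/Y527F by 1426918_at, with no overlap and a log2 difference of 0.20 (SE 0.08, adjusted p = 0.15 in limma). The difference by 1452545_a_at was 0.19 (SE 0.09), and by 2 dimmer probe sets -0.10 and -0.15, none of them called. Itgb4, the hemidesmosome chain, was at the floor on every array, with at most 7.1.

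Itga8, which pairs with Itgb1 and binds nephronectin, was the other alpha chain called higher. Probe set 1454966_at gave 34.6, 34.3 and 39.5 in R388A/Y527F, against 21.0, 16.8 and 22.0 in D386N/Y527F, close to the floor. The difference was 0.77 (SE 0.19, adjusted p = 0.031 in limma). The call was lost when any 1 time was left out (differences of 0.74 to 0.80, adjusted p = 0.122 to 0.166) and with log2(signal + 16) and no floor (0.54, adjusted p = 0.137), and in the second summary the probe set was below the floor on all 6 arrays, as the other Itga8 probe set was in both.

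The remaining alpha chains with a clear signal gave 0 calls. Itga5, the fibronectin receptor chain, gave 269.4, 134.1 and 266.2 at 0, 1 and 12 h in R388A/Y527F, against 293.7, 292.2 and 311.1 in D386N/Y527F (1423267_s_at), a difference of -0.49 (SE 0.18, adjusted p = 0.11 in limma). Without the 1 h arrays that difference was -0.17, and in the fit of probe sets above the floor on all 6 arrays it was called (adjusted p = 0.046, limma). Itgav, the vitronectin receptor chain that pairs with several beta chains, gave 1782.9 to 2016.8 in R388A/Y527F, against 2099.4 to 2175.7 in D386N/Y527F (1452784_at). Its difference of -0.17 (SE 0.09) was not called (adjusted p = 0.26, limma) though the lines did not overlap. The dimmer Itgav probe sets 1421198_at and 1432296_a_at had differences of -0.23 and 0.06, or 0.30 and 0.00 in the second summary, none of them called. Itga3, another laminin receptor chain, had 3 tested probe sets with differences of -0.23, -0.06 and 0.39, which differ in sign, and none passed. Itga2b 1417758_at gave 112.5 to 151.7 in R388A/Y527F, against 109.6 to 171.1 in D386N/Y527F, a difference of -0.15 (SE 0.21). The dimmer Itga10 1440235_at gave 59.3 to 71.8 in R388A/Y527F, against 31.2 to 56.4 in D386N/Y527F. Its difference of 0.56 (SE 0.24) was not called (adjusted p = 0.17, limma), and in the second summary it was below the floor on all 6 arrays. Of 15 member genes with at least 2 tested probe sets, 9 had all differences of 1 sign and 6 did not.

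Itgb5, which pairs with Itgav as a vitronectin receptor, was the beta chain that differed. Probe set 1417534_at gave 328.7, 295.0 and 370.6 at 0, 1 and 12 h in R388A/Y527F, against 524.0, 482.3 and 761.6 in D386N/Y527F. Probe set 1417533_a_at gave 603.6, 607.9 and 697.4 in R388A/Y527F, against 879.2, 848.0 and 933.2 in D386N/Y527F. Probe set 1456133_x_at gave 716.4, 828.3 and 751.6 in R388A/Y527F, against 1036.1, 1002.4 and 1139.1 in D386N/Y527F. All 3 fell without overlap, by 0.81 (SE 0.10), 0.48 (SE 0.07) and 0.47 (SE 0.09) on the log2 scale, with adjusted p of 0.0013, 0.0042 and 0.0088 in limma. The remaining probe set, 1456195_x_at, stood at -0.41 (adjusted p = 0.059, limma) and at -0.72 in the second summary (adjusted p = 0.0022, limma). Without the 1 h or the 12 h arrays none of the 4 was called (adjusted p from 0.0623 upward), and without a trend in the variance prior the 3 were at 0.051 to 0.116. Of 11 tested integrin beta probe sets, 0 were higher and these 3 lower (background 6.82% and 7.25%).

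Among cadherins, 0 of 18 tested probe sets were higher and 1 lower (background 6.82% and 7.25%), for Cdh2, the N-cadherin gene. Probe set 1418815_at gave 445.7, 456.7 and 439.9 at 0, 1 and 12 h in R388A/Y527F, against 647.4, 634.9 and 562.0 in D386N/Y527F. The lines did not overlap, and the difference was -0.46 (SE 0.08, adjusted p = 0.0069 in limma), with -0.61 in the second summary. Its second probe set, 1449244_at, had a difference of -0.33 that was not called (adjusted p = 0.18, limma). Leaving out any 1 time gave adjusted p of 0.0637 to 0.0928 for 1418815_at, and the fit without a trend 0.102.

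Cdh11, the mesenchymal cadherin 11, gave 243.1 to 288.5 in R388A/Y527F, against 255.9 to 307.0 in D386N/Y527F (1450757_at), which overlap, with a difference of -0.07 (SE 0.10). Cdh6, Cdh10, Cdh13 and the other cadherins above the floor on some arrays had dim signals, with differences from -0.42 for Cdh13 to 0.33 for Cdh19, none of them called. The vascular cadherin Cdh5 and the muscle cadherin Cdh15 gave at most 39.2 and 31.7.

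**Figure D3:**
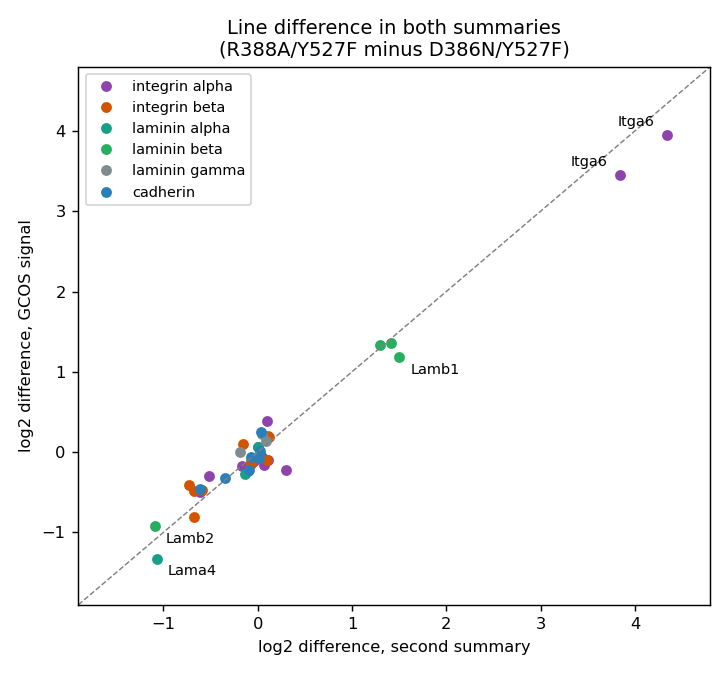
Log2 difference between the lines (R388A/Y527F minus D386N/Y527F) in the GCOS signal, vertical axis, against that in the second summary of the same arrays, horizontal axis, for the 52 member probe sets tested in the second summary. The dashed line marks equal values. Itga6 and Lamb1 are high and Lamb2 and Lama4 low in both.

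In limma on the second summary, 5 of 52 tested member probe sets were higher and 7 lower, where the background was 10.7% and 14%. The 5 higher were the Itga6 and Lamb1 probe sets, and the 7 lower were Lamb2, Lama4, Cdh2 and all 4 of Itgb5. Both summaries come from the same 6 arrays, so this is no second experiment.

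At single times the members were compared by size alone, with no test, as 1 array against 1 array. At 0 h, before imidazole, 7 of 58 member probe sets were at least 2-fold higher in R388A/Y527F, against 1 lower, against a background of 3.45% and 1.82%. Of these, 5 were also 2-fold higher in the second summary, namely both Itga6 and the 3 Lamb1 probe sets, where 1.61% of all probe sets were higher and 0.98% lower in both summaries. The same 5 were 2-fold higher in both summaries at 1 h, where 5 of 58 were higher and 3 lower in all (background 2.88% and 2.97%). Lamb2 and Itga5 were lower in both summaries at 1 h, against 1.46% higher and 1.18% lower in both over all probe sets. At 12 h 5 of 61 were higher and 3 lower (background 2.52% and 3.26%), and both summaries shared both Itga6 probe sets and Lamb1 1451241_at as higher and Lama4 as lower (background 1.46% and 1.28%). The Itga6 and Lamb1 differences were present before imidazole was added.

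The comparisons with 0 h asked whether imidazole changed these genes. In the fit with line and time, 0 of 61 member probe sets changed at 1 h and 0 at 12 h in limma (background 0% of 29728 at each). At an unadjusted p under 0.05 there were 3 at 1 h, with 1 higher and 2 lower, and 5 at 12 h, all higher, where the whole array had 4.02% and 7.32%. The 5 at 12 h were probe sets of Lamb1, Itgb5, Itga6, Itga4 and Cdh5, with log2 changes of 0.36 to 0.72, and the lowest adjusted p among members was 0.51. Cdh5 1422047_at was above the floor on 2 arrays only, and Itga4 1436037_at was below it on both 0 h arrays. Itga6 1422445_at was below it at 0 h in D386N/Y527F. In the second summary its 12 h changes were -0.17 in R388A/Y527F and 0.20 in D386N/Y527F. The difference between the lines in treated minus untreated change gave 0 calls (background 0%), with 4 members at an unadjusted p under 0.05, all lower in R388A/Y527F, and 3.70% over the whole array. The second summary also gave 0 calls in each of the 3 tests, with 1, 5 and 0 members at an unadjusted p under 0.05.

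**Figure D4:**
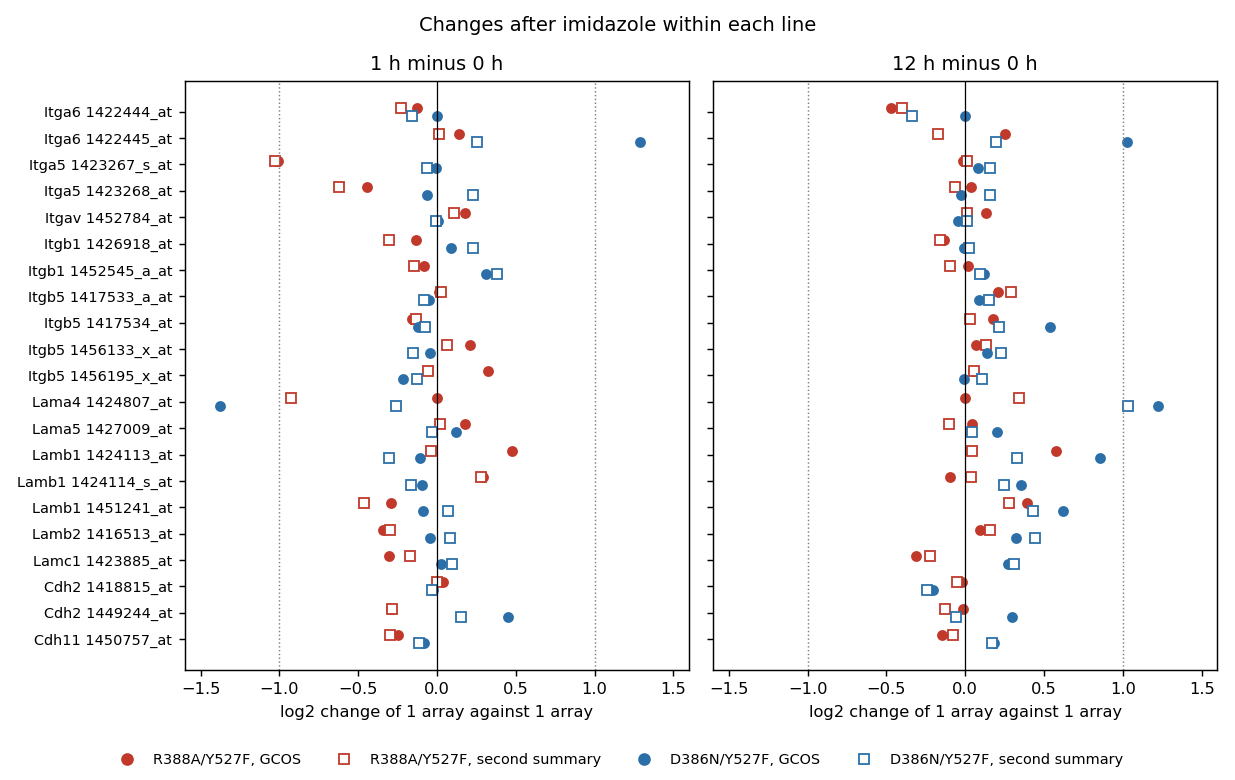
Log2 change of 1 array against 1 array after 1 h (left) and 12 h (right) of imidazole, for 21 member probe sets, with R388A/Y527F in red and D386N/Y527F in blue, filled circles for GCOS signals and open squares for the second summary. Dotted lines mark 2-fold. Itga5 at 1 h in R388A/Y527F and Lama4 at 12 h in D386N/Y527F are past 2-fold in both summaries.

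By size, 1 member was 2-fold different at 1 h in R388A/Y527F, of 58 above the floor (background 1.18% higher and 1.06% lower). This was Itga5 1423267_s_at, at 134.1 at 1 h against 269.4 at 0 h, a log2 change of -1.01 (-1.03 in the second summary, -0.94 under quantile normalization), and its signal at 12 h was 266.2. Over all probe sets, 0.0546% were 2-fold higher and 0.0126% lower there in both summaries. The other measured Itga5 probe set, 1423268_at, gave 106.0, 77.8 and 108.8 at 0, 1 and 12 h in R388A/Y527F, against 120.7, 115.6 and 118.6 in D386N/Y527F. The low value in both probe sets was on the same array. With 1 array it has no replicate check.

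At 12 h in D386N/Y527F, 4 of 57 members were at least 2-fold higher and 0 lower (background 1.88% and 0.638%). Only Lama4 was so in both summaries, at 124.2 at 12 h against 53.1 at 0 h, a log2 change of 1.23 (1.03 in the second summary), where 0.106% of all probe sets were 2-fold higher and 0.0509% lower in both. The other 3, Cdh7, Itgb2 and Itga6 1422445_at, had signals of 18.9 to 23.6 at 0 h. At 1 h in D386N/Y527F 1 of 57 was higher and 1 lower (background 1.78% and 0.611%), and at 12 h in R388A/Y527F 1 of 60 was higher and 1 lower (background 0.921% and 1.19%), none of them 2-fold in the second summary (2-fold in both over all probe sets: 0% and 0.017% at 1 h in D386N/Y527F, 0.0338% and 0.0127% at 12 h in R388A/Y527F). Of the laminin probe sets above the floor on both arrays, 7 of 8 had a positive change at 12 h in D386N/Y527F, with a median of 0.34, while 53.3% of all probe sets were positive. In R388A/Y527F 5 of 8 were positive, with a median of 0.07, while 47.0% of all probe sets were positive. Lamb1 gave 3 of the laminin probe sets in each line. In the second summary 8 of 10 laminin probe sets were positive in D386N/Y527F and 7 of 10 in R388A/Y527F. The shares over all probe sets there were 38.8% and 54.3%. Cadherins had 9 of 10 positive in D386N/Y527F, with a median of 0.29, and 2 of 10 in R388A/Y527F, with a median of -0.13, while in the second summary 7 of 14 and 9 of 13 were positive. The limma test of the lines' difference in treated minus untreated change took the 1 h and 12 h arrays together and gave 0 calls. A difference between the lines in the 12 h change alone was not tested.

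**Figure D5:**
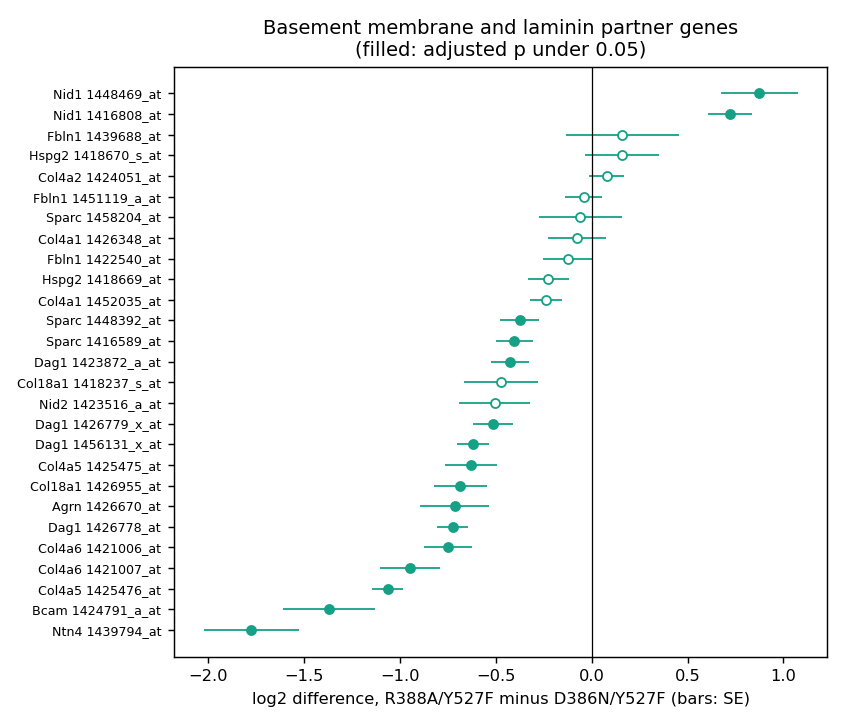
Log2 difference between the lines, R388A/Y527F minus D386N/Y527F, for the 27 tested probe sets of basement membrane and laminin partner genes, with SE bars from the limma fit and filled points at an adjusted p under 0.05. Both Nid1 probe sets are higher, and 14 probe sets are lower.

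Genes that work with these families were counted by list in the same line comparison. In R388A/Y527F, 2 of 27 tested probe sets of basement membrane and laminin partner genes were called higher and 14 lower, with a median of -0.43, against -0.01 for all probe sets, and 2 and 16 were called in the second summary. Over all probe sets 6.82% were higher and 7.25% lower, and 10.7% and 14% in the second summary, which are also the backgrounds of the lists that follow. Both higher probe sets were of Nid1 (0.72 and 0.87), the nidogen that links laminin to type IV collagen, named here after its values were seen. Lower were the netrin gene Ntn4 (-1.77), whose product binds laminin gamma chains, the laminin receptor gene Bcam (-1.37, not tested in the second summary) and the type IV collagen chains Col4a5 (-1.06) and Col4a6 (-0.95). Ntn4 had a mean of 15.2 in R388A/Y527F, under the floor, and 72.4 in D386N/Y527F.

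Of 43 tested probe sets of integrin adaptor and focal adhesion genes, 3 were higher and 13 lower, with a median of -0.19. Parvb, which encodes beta-parvin, was higher by 2.00 (mean signals of 115.6 in R388A/Y527F, against 29.0 in D386N/Y527F). The dimmer Parvb probe set 1422060_at had a difference of 0.24 that was not called. The tensin gene Tns1 (-1.03) and Tgfb1i1 (-0.77), which encodes the paxillin relative Hic-5, were lower. The talin gene Tln2 was called lower by 1429111_at (-0.46). Its dimmer probe set 1435700_at had a difference of -0.84 that was not called, but was called in the second summary (-1.10). Of 16 probe sets of tetraspanins and other membrane partners of integrins, 0 were higher and 7 lower, with a median of -0.25, among them Cd151 (-0.61), a partner of laminin-binding integrins, and Cd47 (-0.47). The dimmer probe sets 1427525_at (-0.28) and 1420921_at (-0.19) of Cd151 and 1430997_at (0.01) of Cd47 were not called.

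Of 24 probe sets of integrin ligands other than laminins, 7 were higher and 5 lower. Npnt, which encodes the Itga8 ligand nephronectin, was higher by 2.88 against the floor (1452106_at, means of 155.3 in R388A/Y527F, against 8.6 in D386N/Y527F), Edil3 by 2.45 and the tenascin gene Tnc by 0.72, and the thrombospondin gene Thbs1 lower (-1.08). Npnt 1452106_at and 1452107_s_at (means of 50.9 in R388A/Y527F, against 4.6 in D386N/Y527F) entered the test only through their R388A/Y527F arrays. The Npnt probe sets 1426560_a_at and 1426561_a_at had differences of 0.43 and 0.85 that were not called. This list went both ways, with a median of -0.01.

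Of 26 probe sets of catenins and cadherin partners, 1 was higher and 5 lower. The plakophilin genes Pkp1 (-1.55) and Pkp2 (-1.32) and the catenin relative Arvcf (-0.95) were lower and Ctnnal1 (0.44) higher. Not called were Pkp2 1460511_at (-0.06), Arvcf 1450856_at (-0.54) and 1423061_at (-0.37), and Ctnnal1 1420929_at (0.50). These Arvcf and Ctnnal1 probe sets were called in the second summary. Among 19 probe sets of desmosomal cadherins and protocadherins, 4 were higher and 2 lower. Pcdh17 was lower (-2.07), and Pcdh10 was higher by 1.62 against the floor (1425563_s_at, means of 62.8 in R388A/Y527F, against 11.4 in D386N/Y527F) but by 0.50 in the second summary. Of 14 probe sets of repressors of E-cadherin transcription, Twist2 (0.47) was higher and Twist1 (-0.41) lower, and Zeb2 had a difference of 0.85 that was not called. Each list was chosen by hand, and its count describes these arrays without a test of the list.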

How the data were processed

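Per the labels' protocols, biotin-labelled RNA of the 6 samples, amplified once, was run on Affymetrix MOE430 mouse arrays. The authors deposited linear intensities made with GCOS 1.3, per the submitters' processing notes, and a workbook with the same values (0 differing) and a second summary of the same arrays whose method is not given in the sources used here. Its trimmed means were 167.3 to 178.1, so it was scaled differently. Of 45101 probe sets, 64 controls were left out. Symbols came from the platform annotation, in which 34945 probe sets had 1 symbol, 932 several and 9160 none. All 115 member symbols matched RefSeq through the Entrez identifier.

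From the deposited intensities, values below the floor were raised to it, log2 was taken, and probe sets above it on at least 2 arrays entered a linear fit (limma 3.58.1, R 4.3.3; trend in the variance prior, 2 residual degrees of freedom). The scripts were tested on simulated data. The number of arrays limits the precision. Alternatives were the second summary, a floor at the 60th percentile (55.0), log2(signal + 16) without a floor, quantile normalization, no trend, 1 probe set per gene, other filters and leaving out 1 time.

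Named genes were all members called in a model or 2-fold apart in both summaries, the brightest members of each family, their partner chains, members at the floor, and up to 4 genes per partner list by size; Nid1 and the called marker genes were added after their values were seen. The members and lists were chosen with earlier results of these data known. Protein sequences named in the plan were not used here, and promoters are shown in their place.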

Additional observations from a re-analysis of the deposited data

Results flagged for a closer look

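In 9 of 61 tested member probe sets (14.8%) both treated arrays moved one way in R388A/Y527F and the other way in D386N/Y527F, relative to the 0 h array of each line, against 18.9% of all 29728 probe sets. The treated minus untreated change in R388A/Y527F minus that in D386N/Y527F was -1.587 on the log2 scale for Cdh10 1433302_at, -1.452 for Itgb2 1450678_at, -0.811 and -0.476 for Cdh6 1450288_at and 1442257_at, -0.554 for Itgb1 1427771_x_at, -0.523 for Cdh2 1449244_at and -0.459 for Lamc1 1423885_at. It was 0.803 for Itgav 1432296_a_at and 0.297 for Itgb5 1456195_x_at. The difference between the lines was tested in limma and passed for 0 of the 9 (lowest adjusted p = 0.996). In the second summary 7 of 52 members (13.5%) had such a pattern, against 18.2% of all probe sets, and 1 member, Lamc1 1423885_at, had it in both.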

How the results depend on the processing

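Over 161 alternative fits of the 16 named probe sets, 129 kept the direction and the side of the threshold, 25 lost and 7 gained a call, and 0 turned direction. Some of the 129 are of probe sets not called in the main fit that stayed uncalled. These were Itga5 1423268_at (11 fits) and 1423267_s_at (9), Cdh2 1449244_at (10), Lama4 1424807_at (7) and Itgb5 1456195_x_at (6). Another 9 are of Itga6 1422444_at, which entered the main test only through its R388A/Y527F arrays. All 25 losses were among called probe sets, so the 129 are no measure of how well the calls held. The 6 higher calls were 3 with 1 probe set per gene and 2 to 5 when 1 time was left out. They were 3 where all 6 arrays had to be above the floor, which removes Itga6 and Itga8. The 5 lower calls were 7 in the second summary, 7 with log2(signal + 16), 7 where all 6 arrays had to be above the floor and 6 with the 60th percentile floor, but 1 without a trend in the variance prior, 3 with 1 probe set per gene, and 0 to 3 when 1 time was left out. Of the 8 members 2-fold apart at 0 h, the second summary and the 60th percentile floor each left 5. Within R388A/Y527F, the 1 at 1 h became 2 with log2(signal + 16) and 0 under quantile normalization, and the 2 at 12 h became 0 in the second summary and 0 with the higher floor. Within D386N/Y527F, the 2 at 1 h became 0 under both, and the 4 at 12 h became 1 in the second summary, 1 with the higher floor and 2 under quantile normalization. Fewer probe sets or arrays enter the per-gene, all-array and left-out fits; for the others the cause was not tested. The counts of 0 for the time and interaction tests held in all alternatives run. Time is a term of the fit, so the lines were compared within each time, and the labels carry no replicate numbers for another block. Dim members such as Itga8 and Lama4 lie near background, where the floor sets the size of a difference.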
